A study of Mus musculus with 5 samples.

Results

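Genes that build, sense, move and export cholesterol were examined in the RNA of mouse colorectal cancer (CRC) tumours, 3 from mice housed at 30 °C and 2 from mice housed at 4 °C. The 31 genes were picked by name, with their difference between the temperatures already known, from 54113 named entries of the count table, and all 31 were among the 16133 genes that passed a filter on low counts. They fall into 19 genes of synthesis, 4 genes of sterol sensing, 5 genes of uptake and transport and 3 genes of efflux. Some further genes of the pathway are not among them, so the list is not the whole pathway. All mice were of the C57BL/6 strain, with no further allele or agent in the labels. They carried tumours described as grown from MC38, a mouse colon carcinoma cell line. In every library the markers of B cells, neutrophils and erythroblasts summed to more than those of epithelium. The levels thus cannot be read as those of the line alone, and the share of the line in the RNA was not measured. Both groups were kept at their temperature for 2 weeks, 30 °C being the thermoneutral control for the cold of 4 °C. The labels give no age, sex or implantation site for a tumour, and the methods give ages and sexes only for the mice of the study in general. The labels do not say whether a library came from 1 mouse or from a pool.

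Cells make cholesterol from acetyl-CoA, first through mevalonate to farnesyl diphosphate and then, from squalene on, through lanosterol to the finished sterol. The transcription factor SREBP2, encoded by Srebf2, drives the genes of this route when sterols in the endoplasmic reticulum are scarce, and the INSIG proteins hold it back, together with its escort SCAP, when sterols are plentiful. Cells also take up cholesterol in lipoproteins, release it from lysosomes, store it as ester and export it through ABC transporters, whose genes are switched on by the liver X receptors when oxysterols accumulate. Tumour cells and activated lymphocytes both draw on this route for new membrane.

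The mean level of every one of the 19 synthesis genes was higher at 4 °C than at 30 °C, by between 0.17 and 0.82 on the log2 scale, with a median of 0.35 (1.27-fold). The largest differences were those of Cyp51, Msmo1 and Fdps. Genes of sensing had a median of 0.073 and ranged from −0.098 to 0.37, the latter for Srebf2. Those of uptake and transport had a median of 0.016, from −0.13 to 0.24, and the efflux genes one of −0.18, from −0.51 to 0.088. The sensing median was 0.029 without 30 °C replicate 1 and 0.22 without 30 °C replicate 2, and the efflux median ranged from −0.27 without 4 °C replicate 1 to −0.097 without 30 °C replicate 1. Over all genes tested the median was 0.0064, and 50.7% of genes had a positive log2 fold change. None of the 31 differences passed the test over all genes. In edgeR's quasi-likelihood test with Benjamini-Hochberg adjustment, 0 of the 31 genes and 0 of the 16133 genes (0%) reached an adjusted p under 0.05. In the Wald test of DESeq2, 118 genes (1.01% of those with an adjusted p) reached it, none of them among the 31. At an unadjusted edgeR p under 0.05 stood 4 of the 19 synthesis genes (Mvk, Mvd, Cyp51 and Msmo1), all higher at 4 °C, and none of the other 12 genes. That number depended on the tumours. Over the 31 genes, without 30 °C replicate 1, 2 or 3 it was 2, 1 and 2, without 4 °C replicate 1 it was 9 and without 4 °C replicate 2 it was 0. The median of the synthesis genes was 0.21 without 4 °C replicate 2. Over the whole table, 1090 genes (6.76%) stood there, 417 of them higher (2.58%) and 673 lower (4.17%). Since the genes were selected on this contrast, their counts are a description and nothing is read from their distance to these shares. In bulk tumour RNA, fewer cells of a type and less RNA per cell cannot be told apart.

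**Figure D1:**
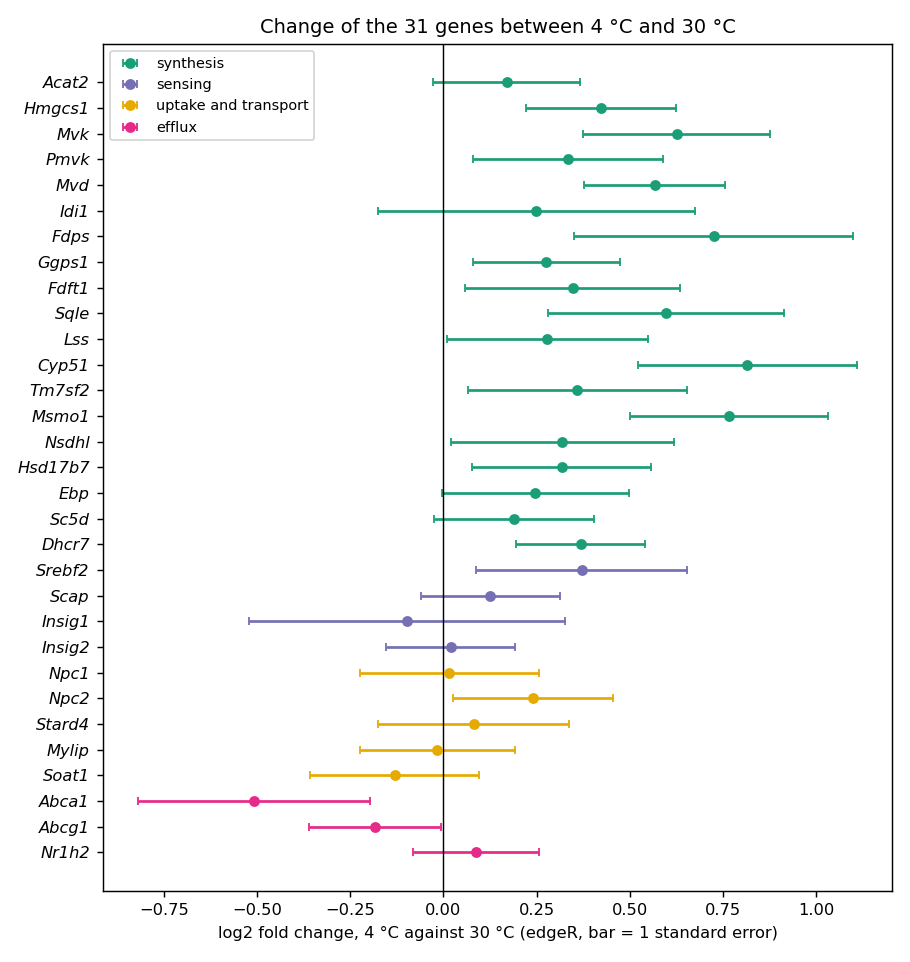
Log2 fold change of the 31 genes between 4 °C and 30 °C (x axis, edgeR, bars 1 standard error), with colours for synthesis, sensing, uptake and transport, and efflux. All 19 synthesis genes lie to the right of 0, between 0.17 and 0.82, while 5 of the other 12 lie to the left, Abca1 farthest at −0.51.

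**Figure D2:**
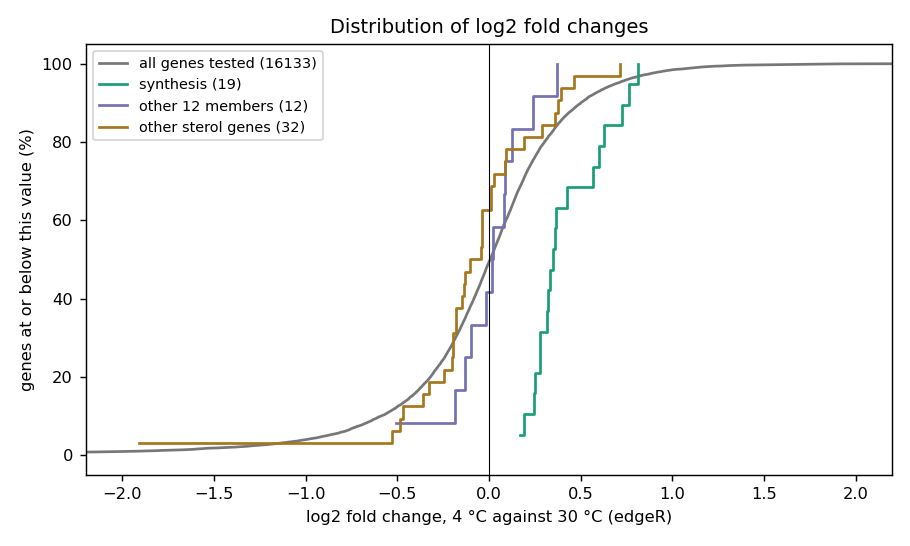
Share of genes at or below a log2 fold change (y axis, percent; x axis, log2 scale) for the 19 synthesis genes, the other 12 genes of the list, 32 other sterol genes and the 16133 genes tested. The synthesis curve starts at 0.17, whereas 50.7% of the genes tested lie above 0.

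The libraries held 16191708 to 20320525 counts on named genes, and a gene of the list had between 60 and 6952 counts in a library, where 3 counts equal 0.131 to 0.246 CPM on the scale used here. Levels are given as CPM, counts relative to library size after TMM scaling, always in the order of the replicate numbers, and the values in parentheses after them are log2 fold changes, 4 °C over 30 °C, ± SE. At 30 °C, replicate 2 stood apart, with pancreatic acinar transcripts summing to 322486 CPM over 14 genes, against 2226 CPM in 4 °C replicate 2 and 18.5 to 69.6 CPM in the other 3 libraries. Epithelial markers, which a carcinoma line can carry, were scarce at 19.2 to 181 CPM at 30 °C and 17.95 to 90.3 CPM at 4 °C, and only 6 of the 10 exceeded 3 counts in every library. Markers of cycling cells summed to 1802 to 2476 CPM at 30 °C and 1148 to 1210.2 CPM at 4 °C, lower at 4 °C in 10 of 10 genes and without overlap in 8. For T cells the sums were 305 to 491 CPM at 30 °C and 663 to 681 CPM at 4 °C, higher at 4 °C in 10 of 10 genes and without overlap in 8. Among all genes tested, 12.2% were higher and 11% lower at 4 °C without overlap. B cell markers reached 1484 to 3778 CPM at 30 °C and 3653 to 4252 CPM at 4 °C, higher in 10 of 10 genes and without overlap in 3. Neutrophil markers were at 2941 to 12489 CPM at 30 °C and 2471 to 3973 CPM at 4 °C, lower in 10 of 10 and without overlap in 2. Erythroblast markers were at 2728 to 5499 CPM at 30 °C and 2997 to 2999.8 CPM at 4 °C, lower in 8 of 9 and without overlap in 2. Macrophage markers were at 2053 to 2534 CPM at 30 °C and 2279 to 3149.7 CPM at 4 °C, and those of fibroblasts and smooth muscle at 632 to 1207 CPM at 30 °C and 834 to 1524 CPM at 4 °C. In each of these 2 lists 7 genes were higher and 3 lower at 4 °C, without overlap in 0 and 2. All 14 acinar genes and all 7 epithelial genes tested had a negative log2 fold change, without overlap in 0 and 1. In both lists, however, 30 °C replicate 2 had the highest sum, and 4 °C replicate 2 exceeded 30 °C replicates 1 and 3. No marker was at 0 in every library, and the part of these cells in the values of the cholesterol genes was not tested.

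**Figure D3:**
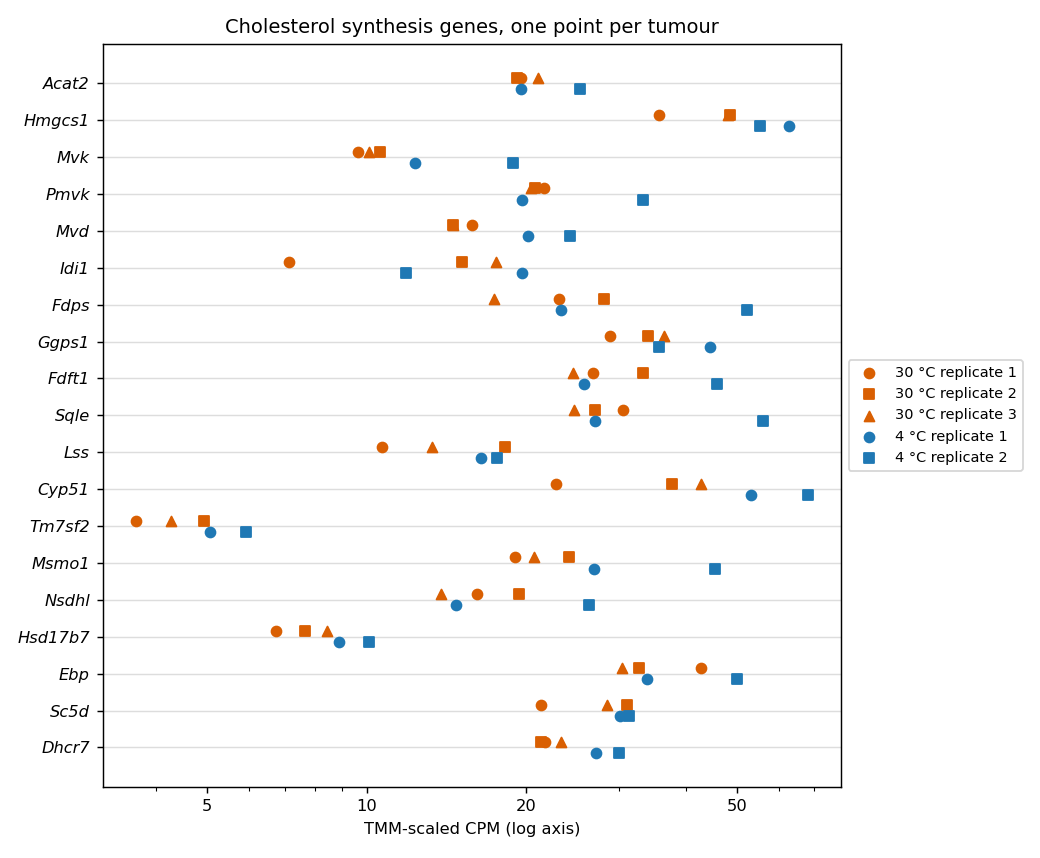
TMM-scaled CPM (log axis) of the 19 synthesis genes, with a point for each of the 5 tumours, orange at 30 °C and blue at 4 °C. Both tumours at 4 °C lie above all 3 tumours at 30 °C in 8 genes, and 4 °C replicate 2 is the highest tumour in 15. Over the 16133 genes tested these numbers are 1971 and 4178.

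The first 8 synthesis genes lead from acetyl-CoA to farnesyl diphosphate and its longer relative, and their summed level was 161, 191 and 186 CPM at 30 °C and 222 and 257 CPM at 4 °C. Both cold tumours thus exceeded all 3 warm ones in the sum. Hmgcs1, which encodes the cytosolic HMG-CoA synthase, stood at 35.6, 48.5 and 48.03 CPM at 30 °C and 62.8 and 55.2 CPM at 4 °C, a log2 fold change of 0.42 ± 0.20 (SE). Mvk, mevalonate kinase, was nearly level among the warm tumours, with 9.63, 10.6 and 10.1 CPM at 30 °C and 12.3 and 18.9 CPM at 4 °C (0.63 ± 0.25, 1.54-fold). Its log2 fold change was 0.27 without 4 °C replicate 2 and 0.90 without 4 °C replicate 1. Mvd, whose product decarboxylates mevalonate diphosphate to the isoprene unit, had 15.8, 14.5 and 14.6 CPM at 30 °C and 20.2 and 24.2 CPM at 4 °C (0.57 ± 0.19). In these 3 genes the groups did not overlap, and Mvk was higher in the second cold tumour, Hmgcs1 in the first. Fdps, farnesyl diphosphate synthase, had the largest difference of the 8 at 0.72 ± 0.38, but this came from the second cold tumour, since the levels were 23.04, 28.1 and 17.4 CPM at 30 °C and 23.2 and 52.2 CPM at 4 °C. Without 4 °C replicate 2, the log2 fold change of Fdps was 0.0083. In the annotation, 26.7% of the exon bases of Fdps also belong to the gene model Gm43738 on the same strand, so its counts are uncertain. Idi1, which isomerizes the isoprene unit, went the other way between the cold tumours, with 7.13, 15.1 and 17.6 CPM at 30 °C and 19.6 and 11.9 CPM at 4 °C (0.25 ± 0.42). Its lowest tumour was 30 °C replicate 1, and 684 of its bases are identical to the pseudogene Gm13502, which had a mean of 4.4 counts against 263 for Idi1. The remaining 3 differed by 0.17 ± 0.20 on the log2 scale for Acat2 (acetoacetyl-CoA thiolase), 0.33 ± 0.25 for Pmvk (phosphomevalonate kinase) and 0.28 ± 0.20 for Ggps1, which makes the geranylgeranyl diphosphate used to anchor proteins in membranes. The cold tumours stood at 19.6 and 25.3 CPM in Acat2, 19.6 and 33.2 in Pmvk and 44.5 and 35.6 in Ggps1, and in each gene 1 of them lay inside or below the range at 30 °C. Acat2 resembles Acat3 over 1477 bases at 97.7% identity and Tcp1 over 445 bases at 98.7%. Acat3 had a mean of 7.8 counts and Tcp1 of 4794, against 379.8 for Acat2, and how reads from the common stretches were counted is not stated.

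The 11 genes from squalene to cholesterol summed to 222, 257 and 235 CPM at 30 °C and 269 and 386 CPM at 4 °C. Fdft1, squalene synthase, and Sqle, squalene epoxidase, open this part of the route. Sqle had 30.5, 27.02 and 24.6 CPM at 30 °C and 27.00 and 55.9 CPM at 4 °C (0.60 ± 0.32), so that the first cold tumour lay inside the range of the warm tumours and the second far above it. Fdft1 showed the same arrangement. It had 26.7, 33.2 and 24.5 CPM at 30 °C and 25.7 and 45.9 CPM at 4 °C (0.35 ± 0.29). However, 774 of its exon bases lie opposite exons of Ctsb, a far more abundant gene. The strand setting of the counting is not stated. Opposite-strand exons also cover 557 exon bases of Hmgcs1, 381 of Lss, 323 of Idi1, 257 of Ggps1 and 166 of Cyp51. Scap and Npc1 have such overlaps too. Lss closes the ring to lanosterol, and its groups overlapped at 10.7, 18.2 and 13.3 CPM at 30 °C and 16.5 and 17.6 CPM at 4 °C (0.28 ± 0.27). Cyp51 (chr5:4081145-4104746 of GRCm38), the demethylase that starts the conversion of lanosterol, had the largest log2 fold change of all 31 genes, 0.82 ± 0.29 or 1.76-fold. Its levels were 22.8, 37.6 and 42.8 CPM at 30 °C and 53.1 and 68.00 CPM at 4 °C, with the groups apart and 30 °C replicate 1 the lowest. Leaving out each tumour in turn moved this value from 0.59 to 1.01. Msmo1, the oxidase that removes the remaining methyl groups together with Nsdhl and Hsd17b7, stood at 19.1, 24.1 and 20.7 CPM at 30 °C and 26.9 and 45.5 CPM at 4 °C (0.77 ± 0.26, 1.70-fold). The log2 fold change of Msmo1 was 0.32 without 4 °C replicate 2 and 1.10 without 4 °C replicate 1. Stretches of about 200 bases of Msmo1 resemble transcripts of 10 other genes, which can take or lend reads. Hsd17b7 had 6.76, 7.64 and 8.43 CPM at 30 °C and 8.85 and 10.1 CPM at 4 °C (0.32 ± 0.24), a small gap but again with no overlap. In Nsdhl the first cold tumour lay inside the warm range, at 16.2, 19.4 and 13.8 CPM at 30 °C and 14.8 and 26.3 CPM at 4 °C (0.32 ± 0.30).

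Tm7sf2 encodes a reductase that saturates the double bond left by Cyp51, and it was the synthesis gene with the fewest counts, at 3.67, 4.93 and 4.28 CPM at 30 °C and 5.07 and 5.93 CPM at 4 °C (0.36 ± 0.29). The groups did not overlap, yet 12.1% of its exon bases are shared with Vps51 on the same strand. Of the 3 enzymes that finish the sterol nucleus, Dhcr7, the last reductase, was evenly lower in all warm tumours, with 21.7, 21.4 and 23.3 CPM at 30 °C and 27.1 and 29.95 CPM at 4 °C (0.37 ± 0.17). Ebp, the isomerase before it, had 42.8, 32.7 and 30.3 CPM at 30 °C and 33.8 and 49.96 CPM at 4 °C (0.25 ± 0.25), and 30 °C replicate 1 exceeded the first cold tumour. Sc5d, the desaturase between them, was at 21.3, 30.96 and 28.4 CPM at 30 °C and 30.04 and 31.3 CPM at 4 °C (0.19 ± 0.22), the smallest difference of the 11. Altogether the groups did not overlap in 8 of the 19 synthesis genes, all higher at 4 °C, and in none of the other 12. Among all genes tested, 1971 (12.2%) were higher at 4 °C without overlap and 1781 (11%) lower. The count of 8 stood with RLE scaling too, where 11.3% of all genes were higher and 11.6% lower without overlap. It was 9 with upper-quartile scaling, which added Ggps1 (14.8% and 9.06% of all genes), and 11 with library totals alone, which added Fdps, Lss and Sc5d (10.97% and 5.41% of all genes).

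For the genes whose groups were apart, and for Abca1 of the efflux group as a contrast, the sequence before the transcription start shows which short motifs the promoters hold. RefSeq promoters on GRCm38.p6 were matched by symbol for 25 of the 31 genes, with no entry for Sqle, Fdps, Fdft1, Npc1, Stard4 and Abcg1. The 250 bases before the start were searched on both strands for CCAAT, the box bound by NF-Y, a usual partner of SREBP, for TCACNCCAC, a sterol regulatory element of the classical kind, and for the E-box CACGTG. None of these motifs contains another. The sequences of Hmgcs1, Mvd and Abca1 are printed 5′ to 3′ on the coding strand, with matches in capitals (ATTGG is CCAAT read on the other strand), and those of Cyp51, Mvk, Msmo1, Tm7sf2, Hsd17b7 and Dhcr7 are left out because the window overlaps annotated exons.
Hmgcs1 (chr13:119690101-119690350, plus strand): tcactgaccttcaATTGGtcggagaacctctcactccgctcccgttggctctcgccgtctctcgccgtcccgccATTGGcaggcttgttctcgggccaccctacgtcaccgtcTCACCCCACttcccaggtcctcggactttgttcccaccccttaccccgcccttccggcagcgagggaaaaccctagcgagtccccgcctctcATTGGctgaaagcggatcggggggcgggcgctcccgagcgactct
Mvd (chr8:122443423-122443672, minus strand): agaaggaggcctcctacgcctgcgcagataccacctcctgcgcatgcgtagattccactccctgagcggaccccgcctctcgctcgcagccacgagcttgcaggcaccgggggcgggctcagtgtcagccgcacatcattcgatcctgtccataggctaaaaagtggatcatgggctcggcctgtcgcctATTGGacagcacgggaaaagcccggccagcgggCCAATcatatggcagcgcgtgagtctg
Abca1 (chr4:53159896-53160145, minus strand): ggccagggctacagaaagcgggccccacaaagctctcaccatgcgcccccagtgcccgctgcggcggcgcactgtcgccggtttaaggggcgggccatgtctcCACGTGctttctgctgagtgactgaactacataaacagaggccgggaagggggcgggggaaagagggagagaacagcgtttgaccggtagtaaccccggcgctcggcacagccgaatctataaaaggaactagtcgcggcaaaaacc

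Of the 16 synthesis genes with a promoter, 15 (93.8%) held CCAAT, Acat2 being the exception, compared with 37.5% of 27025 genes in the promoter table and 40.0% of the 11443 tested genes with a promoter. A gene counted when any of its listed starts held the motif, also where the window overlapped annotated exons. All 250 bases were exonic for Idi1, for Tm7sf2 and for the Dhcr7 start with the box, and 214 for Msmo1. Exon overlap was not counted for the genes outside the list. Of the synthesis genes, Mvk held 5 copies, and Hmgcs1, Msmo1, Hsd17b7 and Ggps1 held 3 each. The box was also found in 3 of 4 sensing genes and 3 of 3 genes of uptake and transport, and in neither Abca1 nor Nr1h2 of the efflux group. Of the 25 genes, only Hmgcs1 held TCACNCCAC, as TCACCCCAC starting 137 bases before the start, against 1.22% of all genes. The E-box occurred in Hsd17b7, Sc5d, Dhcr7, Scap, Insig1 and Abca1, and in 6.86% of all genes or 9.57% of the tested ones. A match describes letters in this window and does not show that a factor binds there.

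Synthesis genes did not stand equally high in the 2 cold tumours. Replicate 2 at 4 °C was the highest of the 5 tumours in 15 of 19 genes and above all warm tumours in 16, whereas replicate 1 was above all warm tumours in 10. Over the 16133 genes tested, cold replicate 2 was the highest tumour in 4178 and the lowest in 4019. It was above all warm tumours in 4826 of them, and cold replicate 1 in 4156. Replicate 2 exceeded replicate 1 in 16 of the 19 and in 11 of the 11 genes from squalene on, against 50.9% of all genes tested. The exceptions were Hmgcs1, Idi1 and Ggps1, all of the mevalonate steps. Between the cold tumours the ratio of replicate 2 to replicate 1 was 2.25 for Fdps, 2.07 for Sqle, 1.79 for Fdft1 and 1.78 for Nsdhl, but 1.07 for Lss and 1.11 for Dhcr7. At 30 °C, replicate 1 was the lowest of the 5 tumours in 10 of the 19 genes, and in 3359 of the 16133 genes tested. The second cold tumour also held more transcripts than the first of fibroblasts and smooth muscle (1524 against 834 CPM) and macrophages (3149.7 against 2279 CPM). The same held for epithelium (90.3 against 17.95 CPM), neutrophils (3973 against 2471 CPM) and pancreatic acinar cells (2226 against 18.5 CPM). B cell markers were lower in it (3653 against 4252 CPM). Those of erythroblasts (2997 against 2999.8 CPM), T cells (681 against 663 CPM) and cycling cells (1210.2 against 1148 CPM) differed little. The part of these cells was not tested. Without 4 °C replicate 2, 13 of the 19 genes were still higher in the cold, with a median of 0.21, while Acat2, Pmvk, Fdft1, Sqle, Nsdhl and Ebp were lower. Without 4 °C replicate 1, 18 were higher, with a median of 0.50, Idi1 being lower. Idi1 was also the only synthesis gene to be lower when 30 °C replicate 1 was left out, and all 19 were higher without 30 °C replicate 2, the library rich in acinar transcripts, or without 30 °C replicate 3. In 12 of the 19 the direction was the same whichever tumour was left out.

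**Figure D4:**
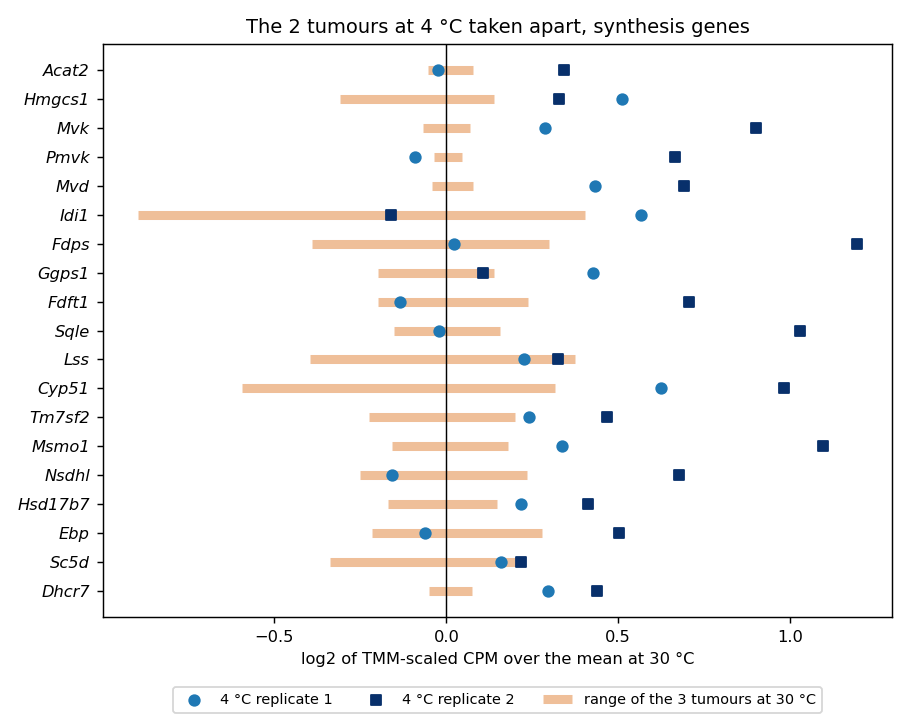
Log2 of TMM-scaled CPM in each cold tumour over the mean of the 3 warm tumours (x axis) for the 19 synthesis genes, with the range of the warm tumours as a pale bar. The square of 4 °C replicate 2 lies to the right of the bar in 16 genes, the circle of replicate 1 in 10. Over the 16133 genes tested, replicate 2 is above all warm tumours in 4826 and replicate 1 in 4156.

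The sensing genes control the synthesis genes and are themselves read as RNA here. Srebf2, the gene of SREBP2 itself, stood at 128, 169 and 235 CPM at 30 °C and 257 and 201 CPM at 4 °C (0.37 ± 0.28). The warm tumours spread widely, and the second cold tumour lay below 30 °C replicate 3, so the groups overlapped. Scap had 50.4, 56.8 and 64.3 CPM at 30 °C and 67.7 and 57.03 CPM at 4 °C (0.13 ± 0.19). Of the INSIG pair, Insig1, which is itself an SREBP target, was at 24.1, 66.4 and 33.4 CPM at 30 °C and 34.96 and 42.1 CPM at 4 °C (−0.10 ± 0.42). Its highest tumour was 30 °C replicate 2, and without that tumour its log2 fold change turned from −0.10 to 0.41. Insig2 hardly varied, at 20.2, 21.1 and 19.6 CPM at 30 °C and 20.2 and 20.97 CPM at 4 °C (0.020 ± 0.17). Thus 3 of the 4 were higher at 4 °C, none without overlap.

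Uptake and intracellular transport showed no common direction, with 3 of 5 genes higher and 2 lower. Npc2, the soluble lysosomal protein that passes cholesterol to NPC1, had 321, 276 and 288 CPM at 30 °C and 280.5 and 416 CPM at 4 °C (0.24 ± 0.22). Npc1, its partner in the lysosomal membrane, had 45.4, 35.6 and 57.5 CPM at 30 °C and 50.4 and 43.1 CPM at 4 °C (0.016 ± 0.24), with every cold value inside the warm range. Stard4, which carries cholesterol through the cytosol, stood at 26.4, 39.5 and 40.1 CPM at 30 °C and 42.97 and 31.8 CPM at 4 °C (0.081 ± 0.26). Soat1, which esterifies cholesterol for storage, had 67.9, 43.7 and 50.6 CPM at 30 °C and 48.04 and 50.8 CPM at 4 °C (−0.13 ± 0.23), with 30 °C replicate 1 the highest. For Mylip, a ubiquitin ligase that removes lipoprotein receptors, the values were 58.6, 69.2 and 82.1 CPM at 30 °C and 75.9 and 62.4 CPM at 4 °C (−0.017 ± 0.21). Each of the 5 took the other sign when some tumour was left out.

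Efflux was represented by 2 transporters and a receptor. Abca1, which loads cholesterol onto apolipoprotein A-I, was the gene with the most negative log2 fold change of the 31, −0.51 ± 0.31, from 67.7, 64.97 and 90.9 CPM at 30 °C and 68.3 and 36.5 CPM at 4 °C. This value rested on the second cold tumour, since the first lay inside the warm range. It was −0.14 without 4 °C replicate 2 and −1.03 without 4 °C replicate 1. Abcg1, which exports cholesterol to high-density lipoprotein, had 89.04, 71.2 and 78.9 CPM at 30 °C and 74.4 and 66.1 CPM at 4 °C (−0.18 ± 0.18). Both transporters kept a negative sign whichever tumour was left out, from −1.03 to −0.14 for Abca1 and from −0.27 to −0.10 for Abcg1. Nr1h2, the gene of liver X receptor β, stood at 87.01, 80.2 and 77.9 CPM at 30 °C and 79.3 and 94.5 CPM at 4 °C (0.088 ± 0.17). In 4 °C replicate 2, where Abca1 and Abcg1 had their lowest values of the 5 tumours, 15 of the 19 synthesis genes had their highest. Over the 16133 genes tested, that tumour was the lowest in 4019 and the highest in 4178.

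**Figure D5:**
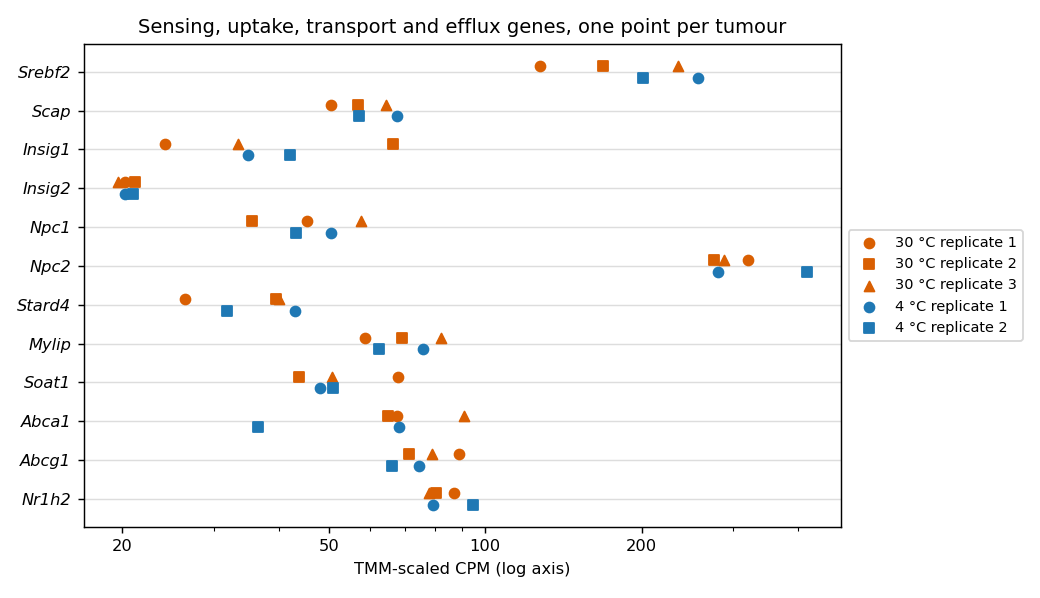
TMM-scaled CPM (log axis) of the 12 genes of sensing, uptake, transport and efflux, with a point for each tumour, orange at 30 °C and blue at 4 °C. The groups overlap in all 12, and Abca1 in 4 °C replicate 2 lies at 36.5 CPM, below every other tumour.

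A further 32 genes of sterol and isoprenoid biology were counted beside the list. Of these, 12 were higher and 20 lower at 4 °C, with a median of −0.071 that turned to 0.023 both with library totals alone and without 4 °C replicate 2, and 0 passed the adjusted test of edgeR in either direction. The groups did not overlap in 5 that were higher and 5 that were lower, against 12.2% higher and 11% lower among all genes tested. At an unadjusted edgeR p under 0.05 stood Lbr and Gramd1a, as did 6.76% of all genes tested. Their adjusted p in edgeR was 0.709 and 0.727. Lbr encodes the lamin B receptor, a nuclear membrane protein that also has the sterol reductase activity of Tm7sf2, and it was lower in the cold, at 253, 264 and 231 CPM at 30 °C and 201 and 156 CPM at 4 °C (−0.49 ± 0.18). Tm7sf2 was higher at 4 °C by 0.36, so the pair of reductases differed in direction, both without overlap. Gramd1a, which moves cholesterol from the plasma membrane to the endoplasmic reticulum, had 48.9, 51.7 and 50.8 CPM at 30 °C and 67.9 and 63.3 CPM at 4 °C (0.38 ± 0.15). The largest difference, −1.91 ± 1.26 for Tmem97, a sterol-responsive membrane protein, rested on 30 °C replicate 2 alone, with 33.2, 237 and 18.3 CPM at 30 °C and 20.3 and 30.9 CPM at 4 °C. Ch25h, which makes an oxysterol from cholesterol, had a log2 fold change of 0.71 ± 0.78 at levels of at most 6.23 CPM, with the groups overlapping. Arl4c, a target of the liver X receptors, was at 77.7, 61.4 and 85.5 CPM at 30 °C and 93.00 and 114 CPM at 4 °C (0.47 ± 0.21), without overlap. Lpcat3, another such target, was at 86.8, 79.9 and 58.8 CPM at 30 °C and 41.7 and 62.7 CPM at 4 °C (−0.53 ± 0.26), and 1 of the warm tumours lay between the cold ones. Pdss1, which builds the tail of ubiquinone, differed by −0.47 ± 0.31, with overlap.

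To set genes side by side, levels were divided by the length of the merged exons in GENCODE M21 and are given as TMM-scaled CPM per kilobase at 30 °C (mean ± SD, n = 3). Npc2 was the highest of the 31 genes at 54.2 ± 4.26, followed by Srebf2 at 24.7 ± 7.57, Nr1h2 at 24.4 ± 1.41 and Mylip at 21.6 ± 3.64, whose values overlapped between tumours. In the synthesis group, Ebp led at 15.3 ± 2.86, above Pmvk at 12.2 ± 0.352 and Hmgcs1 at 9.58 ± 1.60. From Hmgcs1 down to Sqle (4.94 ± 0.532), each gene overlapped its neighbour in the order. At the low end, Hsd17b7 (1.49 ± 0.163), Lss (1.30 ± 0.355) and Tm7sf2 (0.975 ± 0.143) lay below all other synthesis genes. Abca1, at 7.19 ± 1.37, was lower than Abcg1 at 10.9 ± 1.22, and Insig2, at 5.85 ± 0.212, was lower than Insig1 at 13.4 ± 7.19, both without overlap between the warm tumours. With the longest transcript in place of merged exons, 19 of the 31 levels moved by more than 1 SD, so the order depends on which length is used.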

How the data were processed

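RNA-seq was done on 3 tumours at 30 °C and 2 at 4 °C. The deposited values, all whole, were treated as raw counts per gene that the authors made. The sources differ on how: the paper's methods name featureCounts with Gencode vM19, and the submitters' processing notes name fastp, HISAT, RSEM and GRCm38 without versions. How reads mapping to several genes were treated is not given in the sources used here. All columns were used (0 left out). Unnamed entries (333, with 0.0101% to 0.0170% of the counts of a library) were excluded. Libraries held 16191708 to 20320525 counts on named genes. A count of 3 was taken as the floor, for counting error only. Counts were filtered with filterByExpr, scaled by TMM and compared with the quasi-likelihood F-test of edgeR 4.0.16 in R 4.3.3, with robust estimation, no covariate and Benjamini-Hochberg adjustment, and a gene was called at an adjusted p under 0.05. DESeq2 1.42.0 was an alternative, as were other scalings and filters, no robust estimation, the replicate number as a block, the removal of acinar genes and each tumour left out in turn, with the removal of both libraries numbered 2 added after seeing the data. The tests were checked on simulated counts. Replicate libraries differed by far more than sampling noise, so none was counted as a duplicate.

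The 31 genes, the list of 32 further sterol genes and the marker lists were chosen with earlier results of these data known. By rule, values in every tumour were given for genes without overlap between groups, for the 3 largest differences of each group of genes and for gene families. Of the further sterol genes, those at an unadjusted p under 0.05 and the 6 with the largest differences were named. Values given for other members were chosen after they were seen. Some genes of the pathway are not reported here. Lengths, coordinates and overlaps come from GENCODE M21 (GRCm38), and near-identical transcripts were searched with BLAST 2.17.0 (at least 95% identity over 200 bases). No batch or date is given. The paper calls the libraries biological samples, and p-values measure only the spread between these 5 tumours.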

Additional observations from a re-analysis of the deposited data

How the results depend on the processing

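All 19 synthesis genes were higher at 4 °C with DESeq2, with RLE, upper-quartile or no scaling beyond library totals, with either other filter, without robust estimation and without acinar genes. The number of genes called over the whole table, 0 in edgeR, was 118 with DESeq2 and 8 with library totals, and 0 without any 1 tumour. Library totals also moved the median of all genes to 0.11 and left 669 genes at an unadjusted p under 0.05, and 3 of the 31 genes lower at 4 °C instead of 5. Leaving out each tumour gave 520 to 1477 genes at an unadjusted p under 0.05, 0 to 9 of the 31 genes there and 5 to 13 of them lower. In the same settings the median of the synthesis genes ranged from 0.21 to 0.50, that of the sensing genes from 0.029 to 0.22, that of the uptake and transport genes from −0.099 to 0.18 and that of the efflux genes from −0.27 to −0.097. Where a tumour at 4 °C was left out, the remaining one was assumed to vary like those at 30 °C. Without both libraries numbered 2, 241 genes and 0 of the 31 stood at an unadjusted p under 0.05, and 12 of the 31 were lower. Of 465 values of the 31 genes under the alternatives, 38 changed sign, 24 of them outside synthesis, and the cause was not tested.

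With the replicate number as a block, 44 genes were called, none of the 31, 1 of the 31 stood at an unadjusted p under 0.05, and the median of the uptake and transport genes was 0.19. The numbers pair only 2 tumours of each group, and the deviations of same-numbered tumours correlated at −0.25 for number 1 and 0.26 for number 2. With 2 tumours at 4 °C, their deviations from the group mean mirror each other. Each warm tumour therefore correlated with them at equal size and opposite sign, and whether same-numbered tumours were paired cannot be decided from this. With 3 tumours against 2, an exact two-sided rank-sum test cannot go below p = 0.2.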
